A study of Mus musculus with 8 samples.

Results

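The 10 genes described here, Stab1, Stab2, Lyve1, Clec4g, Fcgr2b, Oit3, Gpr182, Ehd3, Dnase1l3 and F8, are receptors, secreted proteins and trafficking genes of the liver sinusoidal endothelial cell. They were chosen by name, with earlier results of these data known, and each matched 1 of the 53816 gene IDs in the tables. RNA was sequenced from 8 mouse liver samples. The control group held 4 samples from wild-type mice (WT), and the other group held 4 from mice labelled as overexpressing Myc in liver sinusoidal endothelial cells (LSEC Myc overexpression). Every sample came after bile duct ligation, in which the duct is tied so that bile cannot drain and the liver becomes cholestatic and fibrotic, so no unligated liver enters any comparison. The sources used here do not give the promoter or Cre driver of the overexpression, the strain, age or sex, or the time after surgery. Nothing in the labels says that the samples came from separate animals. The p-values therefore set differences against the spread between these samples, part of which may be technical.

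Liver sinusoidal endothelial cells line the blood capillaries of the liver with a fenestrated wall that lacks an organised basement membrane. They clear waste from the blood by receptor-mediated endocytosis, including hyaluronan, collagen fragments, modified lipoproteins and small immune complexes. In chronic injury these cells are known to lose fenestrae and clearance receptors and to take on features of continuous capillaries, a change called capillarisation. Levels are given as TPM, a length-corrected share of all transcripts in the library, so they can be set side by side between genes. In whole tissue, fewer sinusoidal cells and less RNA per cell cannot be told apart.

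Of the 10 genes, 6 had an entry in a RefSeq table of promoters on GRCm38.p6, the assembly also called mm10. Sequence before the start site is shown for Clec4g, the member with the highest level, and for the paralogous receptors Stab1 and Stab2, because these 3 had long upstream stretches outside annotated exons. Each runs 5′ to 3′ on the gene's strand, with capitals marking matches to the motifs named below.
Clec4g: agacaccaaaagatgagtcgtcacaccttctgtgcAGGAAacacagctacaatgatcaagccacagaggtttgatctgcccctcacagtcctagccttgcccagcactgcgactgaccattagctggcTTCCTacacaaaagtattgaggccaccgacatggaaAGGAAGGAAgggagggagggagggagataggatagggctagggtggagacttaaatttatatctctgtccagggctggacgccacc
Stab1: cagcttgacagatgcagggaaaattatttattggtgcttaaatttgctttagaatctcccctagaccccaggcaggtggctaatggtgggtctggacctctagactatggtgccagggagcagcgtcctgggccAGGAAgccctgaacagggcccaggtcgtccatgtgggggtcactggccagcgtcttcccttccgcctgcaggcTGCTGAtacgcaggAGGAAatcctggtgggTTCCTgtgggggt
Stab2: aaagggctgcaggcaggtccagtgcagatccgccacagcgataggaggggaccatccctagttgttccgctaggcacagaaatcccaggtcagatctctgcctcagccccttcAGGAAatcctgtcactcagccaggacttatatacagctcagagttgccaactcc
The Clec4g stretch is chr8:3720652-3720901, the Stab1 stretch chr14:31168642-31168891 and the Stab2 stretch chr10:87008026-87008192, all on the minus strand. Both strands were searched for the E-box CACGTG bound by Myc and Max, the GATA motif GATAA, the ETS core AGGAA and the Maf motif TGCTGA. The E-box was in none of the 3 stretches, and 6.02% of 32817 RefSeq promoters held it within 250 bases before the start. The Stab2 stretch is the 167 of those bases farthest from the start, as the nearest 83 lie in annotated exons. In that part 3.32% of promoters held the E-box. GATAA was also in none, against 22.6% of promoters within 250 bases and 17% within the farthest 167. AGGAA was in all 3, at 4 places in Clec4g (2 of them overlapping by their shared A), 3 in Stab1 and 1 in Stab2. But 60.3% of promoters held it within 250 bases and 47.1% within the farthest 167. TGCTGA was found at 1 place in Stab1, 43 bases before the start, and in 16.1% of promoters (10.8% within the farthest 167 bases). These matches describe letters only.

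Aligned bases, derived from coverage and FPKM, were 5.3 to 6.74 Gb per library, and 20276 to 21400 genes were detected above 0. Mean read depth over the members was 9.52 to 81.6 reads per base, except for F8 at 1.54 to 5.77. Myc itself did not follow the labels: the controls spanned 89.2 to 554 TPM and the Myc-labelled libraries 25.6 to 356 TPM, with the lowest of the 8 values in Myc-labelled replicate 3 (log2 difference -0.45 ± 0.95, limma adjusted p = 0.9998). Reads of a transgene may or may not map to this gene, and every direction below rests on the labels. Xist, a transcript of the inactive X chromosome that marks female cells, stood at 32.8 to 43.3 TPM in 5 libraries and at no more than 0.0574 TPM in control replicate 3 and Myc-labelled replicates 3 and 4. Sex is not in the labels. Endothelial identity genes were present in every library, with the adhesion gene Pecam1 at 7.11 to 14.6 TPM and the junction cadherin Cdh5 at 9.73 to 20.4 TPM.

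The 10 genes were expressed at low to moderate levels in all 8 libraries, and all 10 passed the filter of a mean of 1 TPM. Clec4g was the highest, at a mean of 44.9 ± 15.5 TPM (SD, n = 8), followed by Fcgr2b at 27.3 ± 4.65 and Stab1 at 27.1 ± 4.79 TPM. Ehd3 followed at 17.6 ± 6.91 TPM, then Lyve1 at 13.0 ± 7.74, Stab2 at 12.0 ± 2.98, Oit3 at 11.2 ± 4.85, Gpr182 at 9.14 ± 2.37 and Dnase1l3 at 8.1 ± 3.48 TPM. F8 was the lowest, at 1.41 ± 0.482 TPM. Neighbours in this order overlapped in range, except that F8 lay below Dnase1l3 in all 8 libraries with ranges apart. Stab1 was above Ehd3 in 8 of 8 libraries and Clec4g above Fcgr2b in 7 of 8, whereas Lyve1 was above Stab2 in only 4 of 8. Relative to its mean, Fcgr2b varied least over the 8 libraries (coefficient of variation 17.0%) with Stab1 next (17.7%), and Lyve1 varied most (59.7%).

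**Figure D1:**
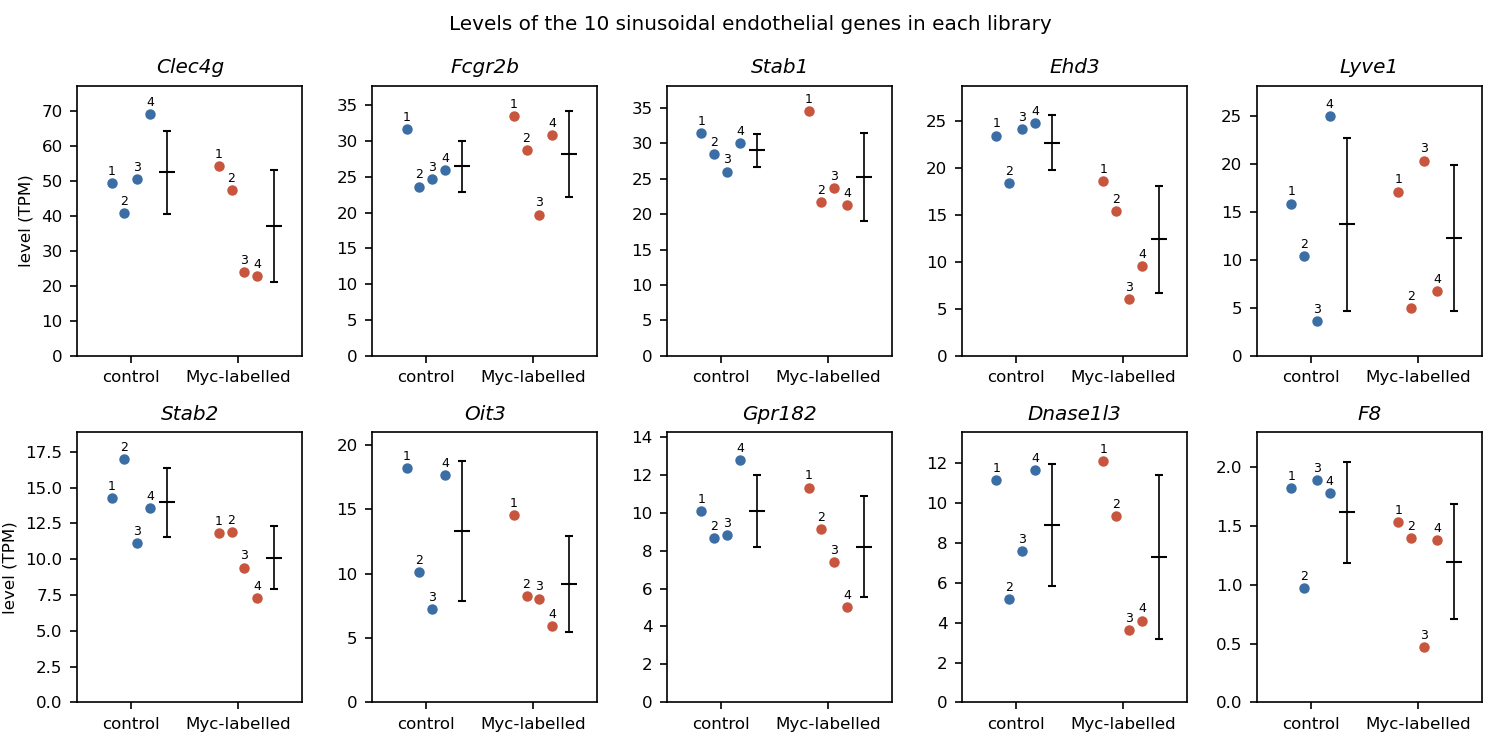
Level (TPM, linear axis from 0, own scale per panel) of each gene in the 4 control and 4 Myc-labelled libraries, with replicate numbers beside the points and the group mean ± SD (n = 4) as black bars. Myc-labelled replicates 3 and 4 are the lowest 2 libraries for Clec4g, Stab2, Gpr182, Ehd3 and Dnase1l3, while Lyve1 spreads from 3.6 to 24.9 TPM within the controls.

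Between the groups, 9 of the 10 genes had a lower mean in the Myc-labelled libraries, and none passed the test. Log2 differences (Myc-labelled minus control) were taken after adding 1 to each TPM, so those of low genes are understated, and their errors are SE from limma. The members' median log2 difference was -0.32, against 0.04 over all 13055 genes tested, and a difference below 0 was found in 42% of those genes. With limma and Benjamini-Hochberg adjustment over all genes, 0 of the 10 members and 0 genes in all (0%) had an adjusted p under 0.05, and each member's adjusted p was 0.9998. At an unadjusted p under 0.05, 2 members were lower (Ehd3 and Stab2), against 0.597% of all genes, and 0 were higher, against 1.26%. In none of the 10 did the 4 values of one group all lie beyond those of the other, a separation seen in 0.322% of genes downward and 0.935% upward. At least 2 Myc-labelled values lay below every control in 6 of the 10 members and in 14.4% of all genes. As the members were chosen with earlier results of these data known, the shares of all genes are a description and no test of the set. Those 2 members at an unadjusted p under 0.05 became 1 without any one of control replicates 1, 2 or 4 or Myc-labelled replicates 3 or 4, became 3 without control replicate 3 or Myc-labelled replicate 2, and became 5 without Myc-labelled replicate 1. The count was 1 with an Xist covariate, and 0 both among the libraries with Xist and without Myc-labelled replicates 3 and 4. Scaling by the median of ratios turned the split of all genes at that p from 165 higher and 78 lower to 166 and 172, with 3 members lower. The members' median was -0.49 without Myc-labelled replicate 1.

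**Figure D2:**
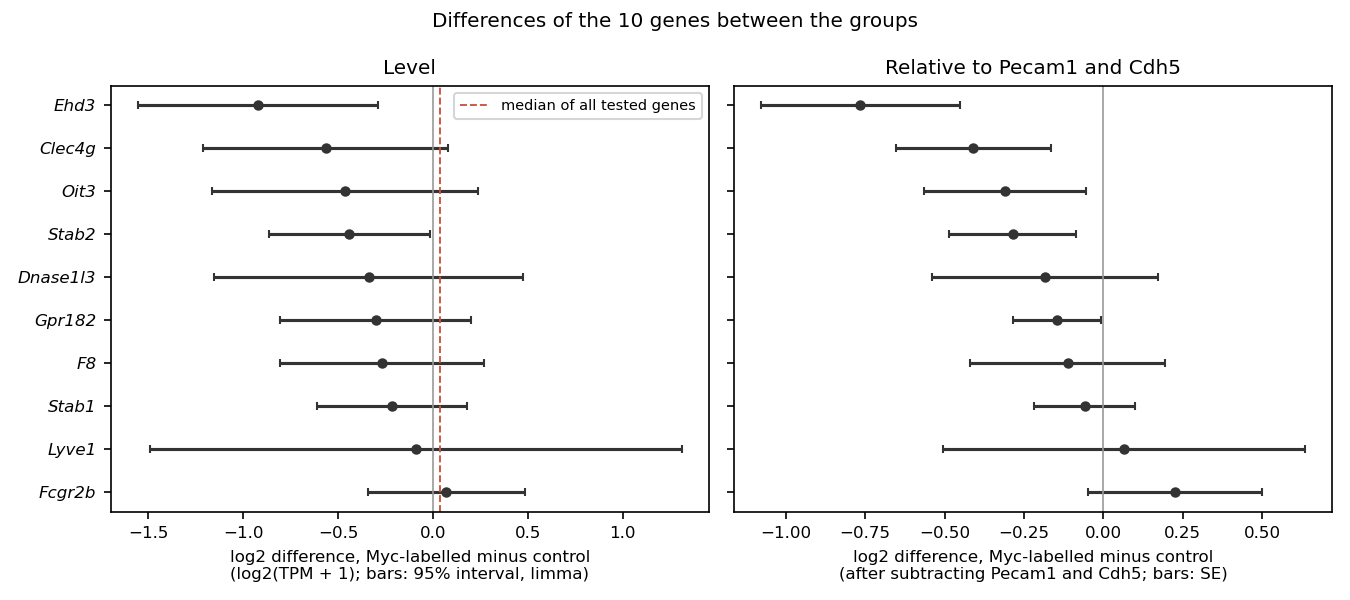
Log2 difference (Myc-labelled minus control) of each gene, left for the level with its 95% interval from limma and right after subtracting the mean log2(TPM + 1) of Pecam1 and Cdh5 in the same library, with the SE. On the left 9 of 10 points lie below 0 and the dashed line marks the median of all tested genes at 0.04; on the right 8 of 10 lie below 0.

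Stab1 and Stab2, the stabilins, are large scavenger receptors, and Stab2 is the main hyaluronan clearance receptor of the sinusoid. Stab1 (ENSMUSG00000042286.13, chromosome 14, 31139013 to 31168641) had 31.5, 28.5, 26.0 and 30.0 TPM across control replicates 1 to 4. Myc-labelled replicates 1 to 4 had 34.5, 21.7, 23.7 and 21.3 TPM. Replicate 1 was the highest of the 8 libraries, and the other Myc-labelled libraries lay below all controls (29.0 ± 2.35 against 25.3 ± 6.23 TPM, SD, n = 4; log2 difference -0.21 ± 0.18, 95% interval -0.61 to 0.18). Omitting Myc-labelled replicate 1 gave -0.37, and omitting replicate 4 of that group gave -0.14, the value nearest 0 with 1 library left out. Stab2 (ENSMUSG00000035459.18, chromosome 10, 86841198 to 87008025) stood at 14.3, 17.0, 11.1 and 13.6 TPM in the controls. The Myc-labelled libraries had 11.8, 11.9, 9.41 and 7.3 TPM, all below the control mean, with replicates 3 and 4 below every control. Its log2 difference was -0.44 ± 0.19 (14.0 ± 2.41 against 10.1 ± 2.2 TPM; limma unadjusted p = 0.0431, adjusted p = 0.9998). The ratio of Stab1 to Stab2 within a library ranged from 1.68 to 2.92, with the highest values in Myc-labelled replicates 1 (2.92) and 4 (2.91). Stab1 shares 543 exon bases with Nt5dc2 on the opposite strand, which stood at 2.46 to 9.04 TPM. The library's strand setting is not given, so reads there cannot be assigned by strand.

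Lyve1 encodes a hyaluronan receptor that also marks lymphatic vessels. Lyve1 (ENSMUSG00000030787.4, chromosome 7, 110850607 to 110863239) had 15.8, 10.4, 3.6 and 24.9 TPM across the controls, against 17.1, 4.99, 20.3 and 6.71 TPM across the Myc-labelled libraries. The groups overlapped, with the lowest and the highest of the 8 values both among the controls (log2 difference -0.09 ± 0.61, 95% interval -1.49 to 1.31). In Myc-labelled replicate 3, the lowest library for 4 other members, Lyve1 had its second highest value. The sign of its difference turned without control replicate 1 (0.06), control replicate 4 (0.27), Myc-labelled replicate 2 (0.23) or Myc-labelled replicate 4 (0.10). Of 5 lymphatic markers, 2 reached a mean of 1 TPM: Prox1, which hepatocytes also express, and the membrane glycoprotein Pdpn at 1.68 ± 0.714 against 2.04 ± 0.917 TPM. The lymphatic chemokine Ccl21a, Mmrn1 and Foxc2 were listed at 0 in some libraries.

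Clec4g and Fcgr2b encode a C-type lectin and the inhibitory Fc gamma receptor, through which sinusoidal cells bind glycans and immune complexes. Clec4g (ENSMUSG00000074491.9, chromosome 8, 3707064 to 3720651) stood at 49.5, 40.9, 50.5 and 69.2 TPM in the controls. Myc-labelled replicates 1 and 2 lay within that range at 54.4 and 47.5 TPM, and replicates 3 and 4 below it at 24.1 and 22.8 TPM (52.5 ± 11.9 against 37.2 ± 16.1 TPM; log2 difference -0.56 ± 0.29, 95% interval -1.21 to 0.08). Omitting Myc-labelled replicate 4 gave a log2 difference of -0.37, and omitting replicates 3 and 4 of that group together gave -0.02. Fcgr2b (ENSMUSG00000026656.15, chromosome 1, 170958617 to 170976547) was the only member with a higher mean in the Myc-labelled libraries. It had 31.7, 23.6, 24.7 and 25.9 TPM across the controls, against 33.5, 28.7, 19.7 and 30.8 TPM across the Myc-labelled libraries, whose values span those of the controls (26.5 ± 3.59 against 28.2 ± 5.97 TPM; log2 difference 0.07 ± 0.19, 95% interval -0.34 to 0.49). Without Myc-labelled replicate 1 its difference was -0.02. B cells and macrophages also use this receptor. The 5 B cell markers, none of them tested, summed to 0.542 to 1.77 TPM per control library and 0.376 to 3.0 TPM per Myc-labelled library.

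Other Fc receptor genes and macrophage markers were counted beside Fcgr2b. Of 5 other Fc receptor genes, among them the shared signalling chain Fcer1g and the neonatal receptor Fcgrt, 0 passed and 5 had a log2 difference below 0 (median -0.18), with Fcgr4 at 24.4 ± 8.12 against 16.9 ± 5.59 TPM and Fcgr3 at 35.7 ± 1.62 against 32.5 ± 10.5 TPM. Without Myc-labelled replicate 3 the 5 were 2 below and 3 above 0 (median 0.05, against 0.12 over all tested genes). The median was -0.37 when Myc-labelled replicate 1 was omitted, and -0.34 and -0.09 for control replicates 3 and 4. Of 12 Kupffer cell markers 0 passed and 12 had a log2 difference below 0, with C1qc at 166 ± 21.4 against 124 ± 31.0 TPM. Their median was -0.40, and -0.19 with 9 of 12 below 0 without Myc-labelled replicate 3. The 12 summed to 968 to 1912 TPM per control library and 765 to 1423 TPM per Myc-labelled library. Stab1 and Fcgr2b can also be expressed by macrophages, and the part of these cells in their values was not tested.

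Oit3 and Gpr182 encode a zona pellucida domain protein and an atypical chemokine receptor, both used as markers of sinusoidal endothelium. Oit3 (ENSMUSG00000009654.4, chromosome 10, 59422958 to 59441778) had 18.2, 10.1, 7.26 and 17.6 TPM across the controls, against 14.6, 8.24, 8.05 and 5.92 TPM across the Myc-labelled libraries. The controls split into a high and a low pair, and the groups overlapped (13.3 ± 5.45 against 9.2 ± 3.73 TPM; log2 difference -0.47 ± 0.32, 95% interval -1.17 to 0.24). Omitting control replicates 1, 3 and 4 in turn gave -0.29, -0.70 and -0.31, and omitting Myc-labelled replicate 4 gave -0.30. Gpr182 (ENSMUSG00000058396.7, chromosome 10, 127747276 to 127751732) had 10.1, 8.65, 8.81 and 12.8 TPM across the controls, against 11.3, 9.13, 7.37 and 5.01 TPM across the Myc-labelled libraries. Replicates 3 and 4 lay below every control (10.1 ± 1.91 against 8.21 ± 2.67 TPM; log2 difference -0.30 ± 0.23, 95% interval -0.80 to 0.20). Omitting Myc-labelled replicate 4 gave -0.11, control replicate 4 gave -0.19 and Myc-labelled replicate 1 gave -0.46. Gpr182 shares 74 exon bases with Zbtb39 on the opposite strand.

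Ehd3, an ATPase of endocytic recycling, had the lowest unadjusted p of the 10. Ehd3 (ENSMUSG00000024065.8, chromosome 17, 73804134 to 73832094) had 23.5, 18.4, 24.1 and 24.8 TPM across the controls, against 18.6, 15.4, 6.07 and 9.53 TPM across the Myc-labelled libraries. The groups overlapped by 1 library: Myc-labelled replicate 1 was just above control replicate 2, and the other Myc-labelled libraries lay below every control. The log2 difference was -0.92 ± 0.29 (95% interval -1.55 to -0.29; limma unadjusted p = 0.00843, adjusted p = 0.9998), and it stayed below 0 in all 21 alternatives, from -1.14 to -0.36, with the value nearest 0 among the libraries with Xist. Of the 3 paralogues measured, Ehd1 stood at 26.5 ± 6.97 against 26.4 ± 8.55 TPM, Ehd2 at 2.45 ± 1.22 against 2.79 ± 1.43 TPM and Ehd4 at 8.98 ± 2.62 against 9.46 ± 3.56 TPM. Each of these paralogues differed by less than its spread between replicates.

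Dnase1l3 and F8 are secreted products: a DNase that degrades DNA in cell debris, and coagulation factor VIII, which the liver makes chiefly in its endothelium. Dnase1l3 (ENSMUSG00000025279.7, chromosome 14, 7964533 to 7994573) had 11.2, 5.18, 7.59 and 11.7 TPM across the controls, against 12.1, 9.34, 3.63 and 4.1 TPM across the Myc-labelled libraries. The Myc-labelled group held both the highest value, in replicate 1, and the lowest 2, in replicates 3 and 4 (log2 difference -0.34 ± 0.37, 95% interval -1.15 to 0.47). That difference was -0.11, -0.15 and -0.61 when Myc-labelled replicates 3, 4 and 1 were omitted in turn. It was -0.22, -0.55 and -0.20 when control replicates 1, 2 and 4 were. Macrophages can also express Dnase1l3. F8 (ENSMUSG00000031196.13, chromosome X, 75172715 to 75382615) had 1.82, 0.974, 1.89 and 1.78 TPM across the controls, against 1.54, 1.4, 0.47 and 1.38 TPM across the Myc-labelled libraries. In each group 1 library stood well below the other 3, control replicate 2 and Myc-labelled replicate 3 (log2 difference -0.27 ± 0.24, 95% interval -0.81 to 0.27). Without Myc-labelled replicate 3 the difference was -0.09, and without control replicate 2 it was -0.40. Its carrier Vwf, a product of continuous endothelium and platelets, stood at 1.54 ± 0.193 against 1.49 ± 0.726 TPM. The export receptor Lman1 stood at 57.4 ± 9.9 against 66.2 ± 19.4 TPM and factor IX (F9) at 113 ± 11.4 against 94.4 ± 19.2 TPM. Of 8 factor VIII partner genes 0 passed, 6 were lower and 2 higher (median -0.10). Without Myc-labelled replicate 3 they were 3 lower and 5 higher, where the median of all tested genes was 0.12.

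The median deviation of the 10 genes overlapped between the groups. Each gene was set against its own mean over the 8 libraries, on the log2(TPM + 1) scale, and the median deviation of the 10 was 0.53 in control replicate 4, 0.34 in Myc-labelled replicate 1 and 0.26 in control replicate 1. It was near 0 in control replicate 2 (-0.04), control replicate 3 (-0.03) and Myc-labelled replicate 2 (0.02). It was lowest in Myc-labelled replicates 3 (-0.39) and 4 (-0.66), which between them held the lowest value of 9 of the 10 genes, Lyve1 being the exception. All 10 genes were above their own mean in Myc-labelled replicate 1, as in control replicate 1. Neither of the low libraries had Xist. Among the controls, replicate 3, also without Xist, had 6 of 10 genes below their mean, and replicate 2, with Xist at 41.0 TPM, had 7 of 10.

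**Figure D3:**
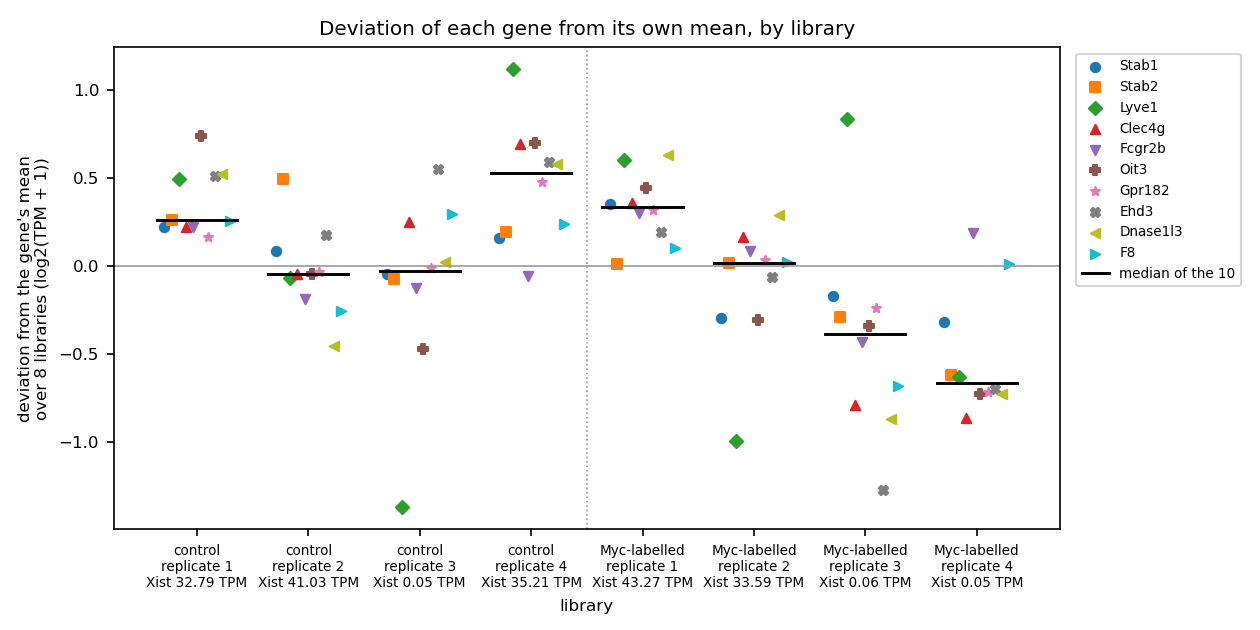
Deviation of each of the 10 genes from its own mean over the 8 libraries (log2(TPM + 1) scale), by library, with the median of the 10 as a black bar and the Xist level under each library. Myc-labelled replicates 3 and 4 have medians of -0.39 and -0.66 and Myc-labelled replicate 1 has 0.34, within the span of the controls.

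The libraries were then split by Xist, with a limit of 1 TPM. Among those that had it (3 controls, 2 Myc-labelled) the median log2 difference was -0.08, with 8 of 10 genes lower and Dnase1l3 (9.34 against 10.7 TPM) and Fcgr2b (27.1 against 31.1 TPM) higher. Over all genes tested in those libraries the median was 0.14, with 3206 of 13147 below 0. Lyve1, at 17.0 against 11.04 TPM, had the difference farthest from 0 (log2 difference -0.71). Ehd3 stood there at 22.2 against 17.0 TPM (log2 difference -0.36) and Stab2 at 14.9 against 11.9 TPM (log2 difference -0.30). Among the libraries without Xist there was 1 control against 2 Myc-labelled samples, and no test was run. There the median log2 difference was -0.43, 9 of 10 log2 differences were below 0, and Lyve1 was higher (3.6 against 13.5 TPM). With log2 Xist as a covariate in limma, the members' median was -0.21 and 0 members had an adjusted p under 0.05.

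Most of the 10 genes varied together over the 8 libraries, Lyve1 and Fcgr2b least. Pearson's r of log2(TPM + 1) was above 0 in 41 of the 45 pairs, with a median of 0.64 (median Spearman's rho 0.55). Over all pairs of the tested genes the median r was 0.19. An r of at least 0.7 was reached by 15 of 45 member pairs (33.3%) and by 7.83% of all tested gene pairs. All pairs share the same 8 libraries. With group means removed the members' median r was 0.54.

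Clec4g, Gpr182 and Dnase1l3 all passed with each other at an adjusted p under 0.05 for r. Clec4g and Gpr182 had r = 0.92 and rho = 0.93 (n = 8, exact permutation p = 0.000124 and 0.00223, two-sided; adjusted over the 45 pairs 0.00558 for r). That r was 0.90 without the 2 libraries farthest from the median of Clec4g, Myc-labelled replicates 3 and 4. Gpr182 and Dnase1l3 had r = 0.85 and rho = 0.95 (exact permutation p = 0.00136 and 0.00114; adjusted p = 0.0205 for r). Here the 2 libraries farthest from the median of Gpr182 were Myc-labelled replicate 4 and control replicate 4, and r without them was 0.93. For Clec4g and Dnase1l3 r was 0.91 and rho 0.88 (exact permutation p = 0.00117 and 0.00724; adjusted p = 0.0205 for r), with r = 0.74 without Myc-labelled replicates 3 and 4. Oit3 and Gpr182 were the last pair to pass, at r = 0.84 and rho = 0.81 (exact permutation p = 0.00419 and 0.0218; adjusted p = 0.0472 for r). The 2 libraries farthest from the median of Oit3 were control replicates 1 and 4, and r without them was 0.83. These 4 pairs of 45 had an adjusted p under 0.05 for r, and 0 of 45 had one for rho, the lowest being 0.0502.

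Ehd3 and Clec4g had r = 0.91, but r was 0.55 without the 2 libraries farthest from the median of Clec4g, and the adjusted p was 0.0565 (exact permutation p = 0.00627). Those 2 were Myc-labelled replicates 3 and 4, and with group means removed r was 0.89 over all 8 libraries. Stab1 and Oit3 had r = 0.86 and rho = 0.83 (exact permutation p = 0.0108 and 0.0154, adjusted p = 0.0807 for r). The 2 stabilins had r = 0.64 and rho = 0.57 (exact permutation p = 0.0851 and 0.151, adjusted p = 0.17 for r). Lyve1 had its highest r with Oit3 (0.71) and values below 0 with Ehd3 (-0.07), Fcgr2b (-0.10) and F8 (-0.25). The mean r of a gene with the other 9 was highest for Dnase1l3 (0.67) and Clec4g (0.66) and lowest for Fcgr2b (0.29) and Lyve1 (0.21).

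**Figure D4:**
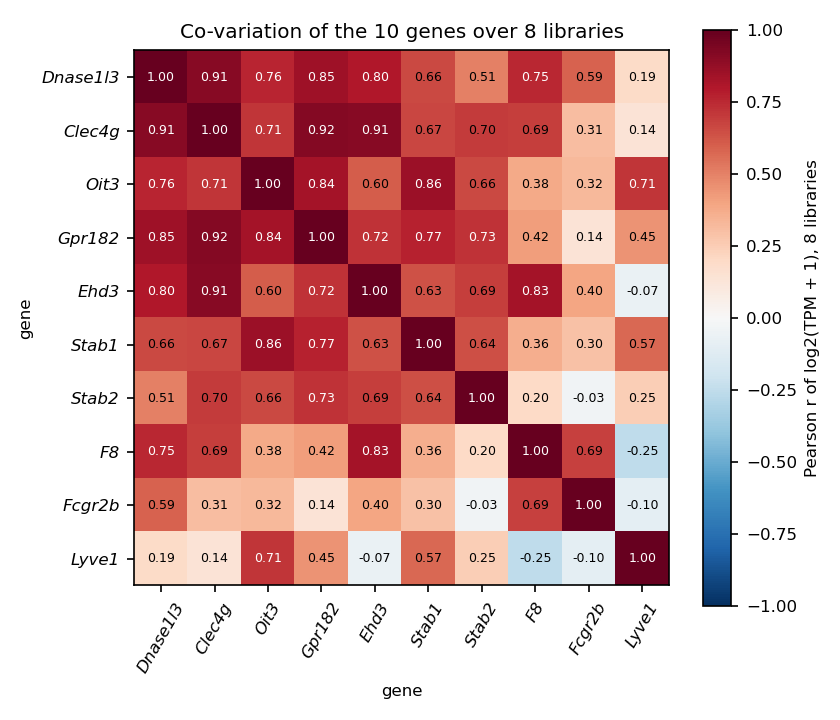
Pearson's r of log2(TPM + 1) over the 8 libraries for each pair of the 10 genes, ordered by mean r with the other 9. Clec4g, Gpr182 and Dnase1l3 have r of 0.85 to 0.92 with each other, and the rows of Fcgr2b and Lyve1 are paler, with values down to -0.25.

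Genes outside the 10 were ranked by their mean r with the 10, as a description over the same 8 libraries. The 10 highest had a mean r of 0.72 to 0.74 and were Zfp943, Plscr2, St7, Tmem136, Ahcyl1, B630019A10Rik, Acss3, Gm5148, Sh3bp5 and Hjv. Hjv, the hepatocyte co-receptor that controls hepcidin, stood at 112 ± 10.6 against 91.7 ± 14.0 TPM. Plscr2, a phospholipid scramblase gene, stood at 38.6 ± 9.09 against 27.6 ± 11.9 TPM. Among the other sinusoidal genes the transcription factor Maf came closest (mean r 0.69), followed by the mannose receptor Mrc1 (0.66). The median of this mean r was 0.56 for 13 other sinusoidal genes, 0.48 for 19 pan-endothelial genes, 0.53 for 12 Kupffer cell genes, 0.25 for 9 hepatocyte genes and -0.16 for 7 neutrophil genes.

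The members were also set against general endothelial RNA. The mean log2(TPM + 1) of Pecam1 and Cdh5 was 3.70 ± 0.335 in the controls and 3.55 ± 0.335 in the Myc-labelled libraries (difference -0.16, exact permutation p = 0.514). After this was subtracted library by library, 8 of 10 genes were lower in the Myc-labelled mean, with a median difference of -0.16. These values depend on a reference of Pecam1 and Cdh5 only. The 19 tested pan-endothelial genes had a median log2 difference of -0.03, with 10 lower and 9 higher. Ehd3 again differed most, at 0.86 ± 0.373 in the controls against 0.09 ± 0.501 (log2 difference -0.77 ± 0.31, exact permutation p = 0.0571, two-sided, with 3 of 4 Myc-labelled values below every control). Clec4g followed at -0.41 ± 0.25 (exact permutation p = 0.171) and Oit3 at -0.31 ± 0.25 (exact permutation p = 0.257). The p of the 10 genes ran from 0.0571 to 0.971, and the smallest p that 70 assignments allow is 0.0286. Stab1 differed by -0.06 ± 0.16 and Fcgr2b was higher by 0.23 ± 0.28.

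Of the other endothelial genes none passed. Of 14 other sinusoidal genes 13 were tested, of which 11 were lower and 2 higher, with a median log2 difference of -0.11. That split turned without 1 library: omitting Myc-labelled replicate 3 gave 6 lower and 7 higher (median 0.015), and omitting replicate 4 of that group gave 5 and 8 (median 0.014). Among the libraries with Xist 1 was lower and 12 higher (median 0.17). The VEGF receptor Kdr stood at 6.83 ± 0.662 against 5.49 ± 1.8 TPM and Mrc1 at 17.0 ± 2.7 against 15.7 ± 6.52 TPM. Of 19 tested pan-endothelial genes 10 were lower and 9 higher (median -0.03), with the guidance receptor Robo4 at 5.87 ± 0.955 against 4.11 ± 0.898 TPM the phosphatase Ptprb at 7.59 ± 0.788 against 5.32 ± 1.84 TPM and the signalling regulator Ecscr at 4.14 ± 0.942 against 6.8 ± 3.39 TPM. Leaving out 1 library moved this median between -0.13 (without control replicate 2) and 0.09 (without Myc-labelled replicate 3). Of 7 tested markers of continuous or activated endothelium 4 were higher and 3 lower (median 0.27), with Esm1 at 1.21 ± 0.531 against 2.54 ± 2.08 TPM and Cd34 at 2.91 ± 0.898 against 3.96 ± 1.94 TPM. That median was 0.06 when Myc-labelled replicate 1 was omitted, and 0.11 and 0.12 for control replicates 2 and 3. The 3 lower genes were Plvap, Vcam1 and Vwf. Plvap stood at 64.6 ± 17.6 against 58.3 ± 13.4 TPM, Vcam1 at 30.2 ± 7.66 against 29.5 ± 15.9 TPM and Vwf at 1.54 ± 0.193 against 1.49 ± 0.726 TPM. P-selectin (Selp), an adhesion receptor of activated endothelium, stood at 1.76 ± 0.351 against 3.78 ± 0.695 TPM, with all 4 Myc-labelled values above every control (log2 difference 0.79 ± 0.19, limma unadjusted p = 0.00176, adjusted p = 0.9998). A separation of that kind was seen in 0.935% of all tested genes, and Selp is named for the smallest p in its list. Of 11 endothelial transcription factors 9 were higher and 2 lower (median 0.07), with Meis2 at 1.91 ± 0.418 against 2.87 ± 1.012 TPM. Without Myc-labelled replicate 1 they were 3 higher and 8 lower (median -0.08). The median was 0.02 when control replicate 2 was omitted, 0.03 for Myc-labelled replicate 2, 0.18 for Myc-labelled replicate 4 and 0.13 for control replicate 4. The difference between these lists and the 10 was not tested.

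Genes that work with the members in clearance showed no member past the threshold either. Of 16 tested scavenger and clearance receptors 11 were lower and 5 higher (median -0.14), with the haemoglobin scavenger Cd163 at 25.6 ± 6.9 against 17.3 ± 9.67 TPM. Their median was -0.02, -0.08 and -0.26 when Myc-labelled replicates 3, 4 and 1 were omitted in turn. It was -0.04 when either control replicate 2 or control replicate 4 was omitted. Among the libraries with Xist it turned to 0.11, with 5 lower and 11 higher, where the median of all tested genes was 0.14. Of 19 tested genes of clathrin endocytosis and recycling 10 were higher and 9 lower (median 0.04), with the early endosome tether Eea1 at 4.84 ± 0.92 against 6.41 ± 1.1 TPM and Rab7 at 258 ± 48.8 against 199.6 ± 25.3 TPM. That median was -0.06 without any one of control replicate 1 or Myc-labelled replicates 1 or 4, and 0.13 without Myc-labelled replicate 3. Of 9 hyaluronan genes 4 were tested, of which 2 were lower and 2 higher. The hyaluronidases Hyal1 and Hyal2 stood at 17.8 ± 6.19 against 12.9 ± 2.06 TPM and at 41.6 ± 2.3 against 37.3 ± 5.85 TPM, and Cemip2, a cell-surface hyaluronan-degrading protein, at 3.29 ± 0.748 against 4.15 ± 0.445 TPM. Cd44, the other tested hyaluronan gene, stood at 7.43 ± 3.01 against 11.1 ± 6.52 TPM. Of 3 tested DNase genes beside Dnase1l3, Dnase2b stood at 9.47 ± 1.76 against 7.94 ± 2.4 TPM. Dnase1l1 stood at 6.72 ± 1.09 against 5.97 ± 1.25 TPM and Dnase2a at 14.5 ± 2.65 against 14.9 ± 2.6 TPM.

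Markers of other cells moved between libraries as well, with 0 of any list past the threshold. Of 7 tested neutrophil markers 7 were higher (median log2 difference 0.62), with a summed level of 13.7 to 70.03 TPM per control library and 25.6 to 151 TPM per Myc-labelled library, and Ly6g and Camp were listed at 0 in some libraries. Without Myc-labelled replicate 4, which held the highest sum, the median was 0.20 over 5 tested genes. The 9 stellate cell markers split into 4 higher and 5 lower and summed to 256 to 451 against 244 to 617 TPM, with a median of -0.08 that ran from -0.29 without Myc-labelled replicate 1 to 0.09 without Myc-labelled replicate 2. Of 6 tested cholangiocyte markers 5 were higher, with sums of 31.2 to 43.2 against 30.2 to 56.6 TPM, and 3 were higher without control replicate 2 or without Myc-labelled replicate 1. Of 9 hepatocyte markers 8 were lower, with sums of 66104 to 122580.0 against 64174 to 102115 TPM, and 5 were lower without Myc-labelled replicate 4. Of 6 monocyte and macrophage markers 4 were higher (median 0.41, and 0.23 without Myc-labelled replicate 4), with sums of 35.0 to 69.7 against 43.6 to 131 TPM, and all 3 tested erythroid markers were higher (median 0.64, from 0.35 without control replicate 4 to 1.073 without control replicate 1). The part of these cells in the members' values was not tested.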

How the data were processed

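Libraries came from total RNA of 8 liver samples and were made with a kit for mRNA, per the labels' protocols. The submitters' processing notes name HISAT2, StringTie and the mm10 build, without versions. TPM, the unit tested here, is the deposited value per gene. FPKM and Coverage (a signal, mean reads per base) were deposited by the authors beside it. Repeated rows of a gene ID (10 to 15 per library, 0 of them members) were summed. Aligned bases assume that FPKM divides by total aligned bases.

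Differences were fitted with limma 3.58.1 (R 4.3.3; trended, robust, two-sided) on log2(TPM + 1) for 13055 genes whose mean reached 1 TPM, and p-values were adjusted by Benjamini-Hochberg (threshold 0.05). The script was tested on simulated data. Correlations used 40320 exact pairings and group comparisons of single values 70 assignments (Python 3.11.15, numpy 2.4.6, scipy 1.17.1, pandas 2.3.3). The members and the 19 other lists (182 genes) were chosen with earlier results of these data known. Some genes are in several of those lists. Named genes are the members, up to 3 per list by smallest p, their partners and paralogues, and the 10 genes of highest mean r. A few others are named to show list genes of the other direction. Tmem2 is named Cemip2 in the tables, and Ahsp was not analysed here. Nothing in the labels says that replicate numbers mark litters or days. Alternatives covered pseudocounts 0.1 and 5, filters, scaling, FPKM, variance model, array weights, an Xist covariate, a block for replicate number and omission of each library. Those restricted to libraries with Xist and those without Myc-labelled replicates 3 and 4 were chosen after seeing the data.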

Additional observations from a re-analysis of the deposited data

Results flagged for a closer look

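In 2 of 20 gene-by-group sets of 4 values among the members, 1 library stood apart from the other 3 by more than the 95% limit of Dixon's ratio, and both were F8. Its value of 0.974 TPM in control replicate 2 lay under the other controls at 1.78 to 1.89 TPM. Its value of 0.47 TPM in Myc-labelled replicate 3 lay under the other Myc-labelled libraries at 1.38 to 1.54 TPM. F8 was the member with the thinnest coverage. Over all 132 sets checked, 11 passed that limit, and chance gives about 1 in 20.

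Above the rest of their group were Robo4 at 5.45 TPM, Pdpn at 3.4 TPM and Gpnmb at 21.9 TPM in Myc-labelled replicate 1, and Alb at 73217 TPM in Myc-labelled replicate 2. Among the controls, Rab5a at 41.0 TPM in replicate 1, Ngp at 1.74 TPM in replicate 2 and Cemip2 at 4.41 TPM in replicate 4 were above the rest. Below the rest were F9 at 65.9 TPM in Myc-labelled replicate 3 and Ttr at 1663 TPM in control replicate 2.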

How the results depend on the processing

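No gene passed an adjusted p of 0.05 in limma under 20 of 21 alternatives; with array weights 1 gene was lower and it was no member. The count of members lower was 7 to 10 and their median log2 difference -0.49 to -0.07, below 0 under each alternative. With the replicate block the members lower were 9 and the median -0.32; deviations of libraries with the same number correlated at 0.13, -0.06, 0.07 and 0.07, so the numbers are not used as pairs. Leaving out 1 library gave 8 to 10 members lower and a median of -0.49 to -0.22. A pseudocount of 5 gave a median of -0.21 and an Xist covariate -0.21. Restricting to libraries with Xist gave -0.08, and leaving out Myc-labelled replicates 3 and 4 gave -0.07. The median of all genes was 0.04 and moved to 0.14 under each of these last settings, to 0.12 without Myc-labelled replicate 3 and to -0.04 without Myc-labelled replicate 1. The cause was not tested. Genes at an unadjusted p under 0.05 were 165 higher and 78 lower, but 166 and 172 with median-of-ratios scaling and 166 and 152 with quantile normalization.

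Stab1, Stab2, Clec4g, Oit3, Ehd3 and F8 kept their sign under each alternative, F8 in the 19 where it passed the filter. Lyve1 turned to 0.066 with the Xist covariate, and ran from -0.56 to 0.27 with 1 library left out. Fcgr2b ran from -0.018 to 0.23 and Myc from -0.91 to 0.43 in the same way. Myc was 0.23 with array weights, 1.015 among libraries with Xist and 0.59 without Myc-labelled replicates 3 and 4. Dnase1l3 was 0.24 among libraries with Xist and 0.29 without Myc-labelled replicates 3 and 4, where Gpr182 was 0.027. None of these passed. The median r of the members was 0.54 to 0.69 over its 14 alternatives. Depth limits F8 most, and TPM keeps no count from which an interval could be made.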
